A study of Callithrix jacchus with 4 samples.

Results

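Collagen genes were examined in RNA-seq counts from marmoset (Callithrix jacchus) forebrain taken at postnatal day 5. The members were all genes of the deposited table whose symbol has the form COL, a number, A and a number, which gave 43 of 35205 genes. Of the 4 libraries, 2 came from FMR1 mutant marmosets made with CRISPR/Cas9 and 2 from wild-type marmosets. The labels give brain as the tissue, and the series' design adds that forebrain samples cover cortex, striatum and hippocampus. The labels do not give the exact FMR1 mutation, the sex or litter of the animals, or whether each library is a separate animal. The p-values therefore cover only library-to-library spread, part of which may be technical. FMRP, the product of FMR1, binds neuronal mRNAs, controls their translation and is missing in fragile X syndrome.

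Collagens are secreted or membrane proteins whose alpha chains wind into a triple helix. In the brain, fibrillar collagens are made mainly by fibroblasts of the meninges and of the larger vessels, while type IV, XV and XVIII collagens belong to the basement membranes of vessels and of the brain surface. A few others are made by neurons. Type III collagen of the meninges is a ligand of the receptor ADGRG1 (GPR56) on cells of the developing cortex, and type IV collagen chains are needed for the strength of brain vessels.

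The libraries held between 12331639 and 13455702 counts, of which collagen genes took between 8578 and 10428. FMR1 RNA was at 81.1 and 118.9 CPM (counts scaled by library size) in FMR1 mutant libraries, against 86.3 and 78.6 CPM in wild-type libraries, and did not pass the test (log2 fold change 0.28, SE 0.15). Markers of forebrain neurons were abundant in all libraries, with summed levels of 6390 and 6208 CPM in mutant and 5872 and 5665 CPM in wild-type libraries. The largest part of each sum was STMN2, at 3059 and 2902 CPM in mutant libraries, against 2560 and 2232 CPM in wild-type libraries. Of the 10 markers, 5 had a log2 fold change below 0 and 5 above it. The 4 thalamic markers were each highest in wild-type replicate 1. One of them, the transcription factor TCF7L2, was at 9.01 and 8.98 CPM in mutant libraries, against 96.0 CPM in wild-type replicate 1 and 11.3 CPM in wild-type replicate 2. Markers of choroid plexus, the tissue that makes cerebrospinal fluid, summed to 133 and 33.2 CPM in mutant libraries, against 39.2 and 37.8 CPM in wild-type libraries. The high sum came from TTR, which encodes transthyretin. Without it, the other 8 markers summed to 38.4 and 26.7 CPM in mutant libraries, against 38.6 and 30.5 CPM in wild-type libraries.

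Collagen RNA was mostly somewhat lower in the mutant libraries, and 1 collagen gene, COL9A2, passed the test. Of the 43 members, 41 had enough counts to be tested. With edgeR's quasi-likelihood test and Benjamini-Hochberg adjustment over 16956 genes, 1 member fell, 0 rose and 40 did not pass. This is 2.44% of the members tested, against 2.23% of all genes tested, of which 1.57% were lower and 0.661% higher. The log2 fold change, mutant over wild-type, was below 0 for 34 of 41 members and for 50.7% of all genes tested. Its median was -0.21 over the members and -0.00396 over all genes. Under other scalings (RLE, upper quartile and the size factors of DESeq2), 34 members were below 0 as well. At an unadjusted p under 0.05, 6 members were lower and 0 higher (14.6% lower, against 7.75% of all genes tested). Both mutant libraries were below both wild-type libraries for 14 members (34.1%, against 21.8% of all genes), and above them for 1 (against 21.4% of all genes).

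**Figure D1:**
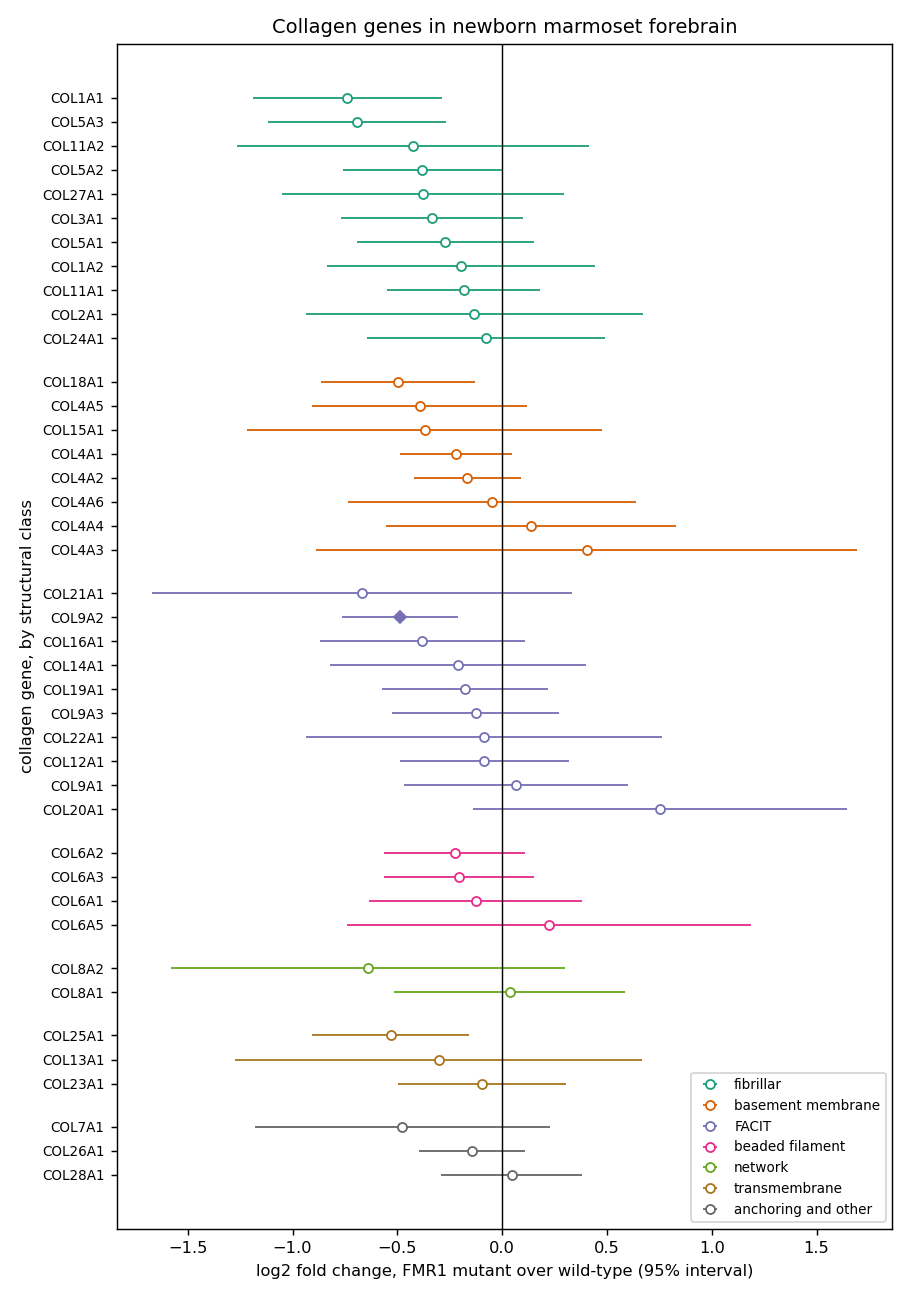
Log2 fold changes (x axis, FMR1 mutant over wild-type, with 95% intervals) of the 41 collagen genes tested, ordered by structural class down the page. The filled diamond is COL9A2, which passed the test, and open circles are the 40 genes that did not. Of the 41 points, 34 lie left of 0.

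The direction leaned on wild-type replicate 2. That library was the highest of the 4 for 25 of 41 members (against 24.9% of all genes tested). Without it, 26 of 41 members were below 0 and the median was -0.11. Without wild-type replicate 1, 37 members were below 0 and the median was -0.29. Leaving out mutant replicate 1 gave 30 members and a median of -0.16. Leaving out mutant replicate 2 gave 36 members and -0.36.

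Fibrillar collagens form the banded fibrils of connective tissue. All 11 fibrillar genes were tested, all had a log2 fold change below 0 (median -0.34, from -0.74 to -0.08), and none passed the test. COL1A1, the more numerous chain of type I collagen, was at 23.9 and 21.7 CPM in mutant libraries, against 28.3 and 48.0 CPM in wild-type libraries. Both mutant libraries were below both wild-type libraries, but the wild-type libraries lay further from each other than wild-type replicate 1 lay from either mutant library. The log2 fold change was -0.74 (SE 0.21, 95% interval -1.19 to -0.29), and the adjusted p of edgeR's quasi-likelihood test was 0.0979. Without wild-type replicate 1 the change was -1.07 (adjusted p = 3.25e-06 by edgeR), and without wild-type replicate 2 it was -0.31 (adjusted p = 0.552). COL1A1 also passed with the replicate number as a block (adjusted p = 0.0321 by edgeR).

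COL1A2, the partner chain of type I collagen, was at 43.4 and 42.8 CPM in mutant libraries, against 35.4 and 63.5 CPM in wild-type libraries. The mutant values lay between the wild-type values, and the log2 fold change was -0.20 (SE 0.26). COL3A1, the chain of type III collagen, was at 16.3 and 17.4 CPM in mutant libraries, against 15.7 and 27.0 CPM in wild-type libraries. The groups overlapped, the log2 fold change was -0.34 (SE 0.21, 95% interval -0.77 to 0.10), and it was 0.11 without wild-type replicate 2.

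Type V collagen nucleates type I fibrils and sets their width. COL5A3 was at 8.63 and 9.42 CPM in mutant libraries, against 13.7 and 15.5 CPM in wild-type libraries. These groups did not overlap, and the gap between them was wider than the spread within either group. The log2 fold change was -0.69 (SE 0.21, 95% interval -1.12 to -0.27) and missed the threshold (adjusted p = 0.0751 by edgeR). It stayed between -0.78 and -0.60 whichever library was left out. COL5A2 was at 20.0 and 31.5 CPM in mutant libraries, against 36.4 and 30.6 CPM in wild-type libraries. Mutant replicate 1 alone was low, and the log2 fold change of -0.38 (SE 0.18) shrank to -0.09 without it. COL5A1 was at 11.8 and 13.4 CPM in mutant libraries, against 12.1 and 18.4 CPM in wild-type libraries, which overlap (-0.27, SE 0.21).

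COL11A1, which copolymerizes with type II and type V collagen, had a log2 fold change of -0.18 (SE 0.18). The cartilage gene COL2A1 was counted between 24 and 45 times per library, and its interval of -0.94 to 0.67 spans both a near halving and a rise. COL11A2, COL27A1 and COL24A1 had log2 fold changes of -0.43, -0.38 and -0.08, with SE between 0.28 and 0.41.

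**Figure D2:**
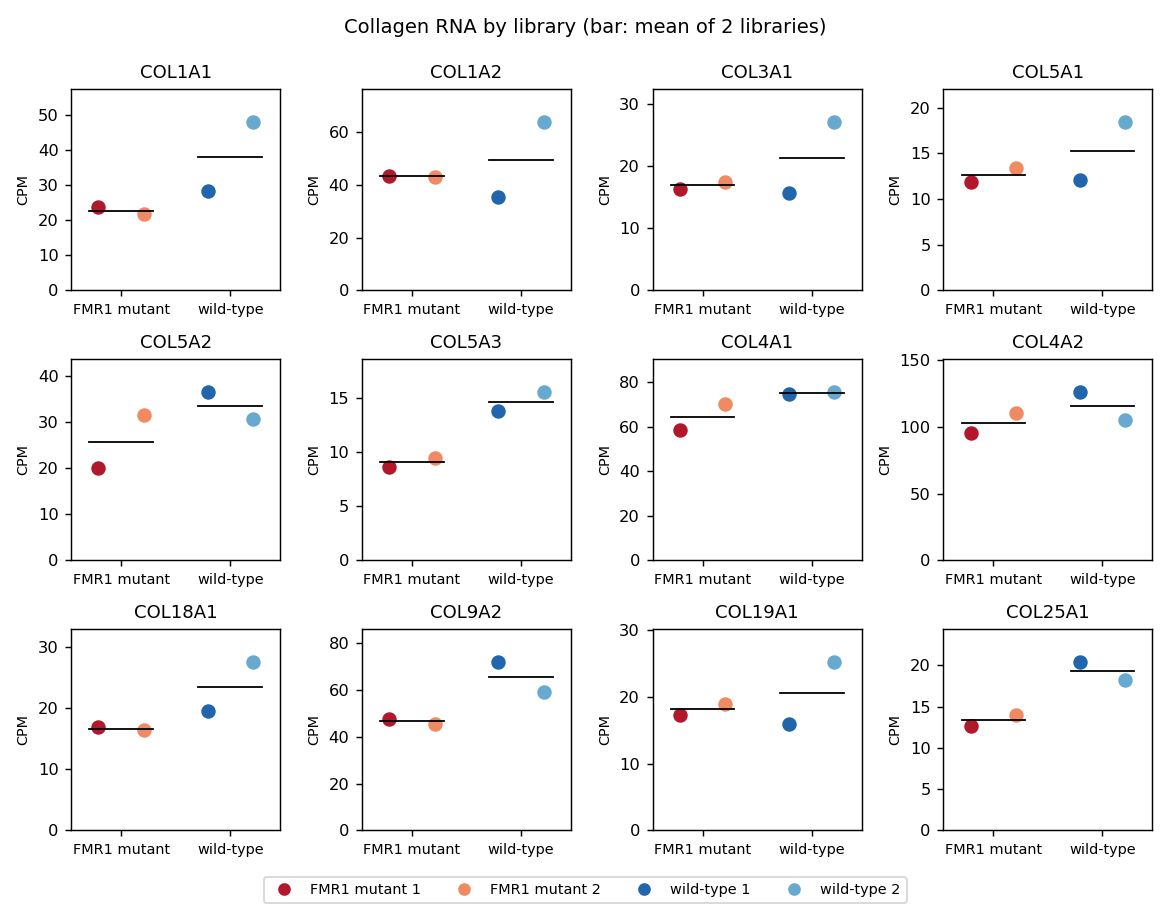
CPM (y axis, from 0) of 12 collagen genes in each library, with FMR1 mutant libraries on the left and wild-type libraries on the right of each panel. Horizontal lines are means of 2 libraries. COL1A1, COL1A2, COL3A1, COL5A1, COL5A3, COL4A1, COL18A1 and COL19A1 have their highest point in wild-type replicate 2. COL5A3, COL9A2 and COL25A1 have both wild-type points well above both mutant points.

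The balance between both type I chains was described by a share of counts. COL1A1 made up 35.5% and 33.7% of the summed COL1A1 and COL1A2 counts in mutant libraries, against 44.4% and 43.0% in wild-type libraries. The exact (Clopper-Pearson) 95% intervals were 32.3% to 38.7% and 30.5% to 36.9% in mutant libraries, against 41.0% to 47.9% and 40.4% to 45.7% in wild-type libraries. They cover counting error only. This share was nearly equal in both wild-type libraries, although their COL1A1 and COL1A2 levels differed widely. Means were 34.6% ± 1.28 in mutant and 43.7% ± 0.995 in wild-type libraries (SD, n = 2 each), a difference of -9.14 percentage points. The exact two-sided permutation test gave p = 0.333, the smallest that 2 against 2 libraries allow. The shares are of raw counts, not of molecules per length.

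The same share was computed for 9 gene pairs, which were chosen after their values had been seen. The groups overlapped for 6 of them and did not for 3 (33.3%, against 43.1% of all genes tested by level). For COL4A1 with COL4A2, the COL4A1 share was 38.0% and 38.9% in mutant libraries, against 37.3% and 41.8% in wild-type libraries. For COL6A1 with COL6A2, the COL6A1 share was 31.9% and 34.9% in mutant libraries, against 28.2% and 34.8% in wild-type libraries. Besides type I, the groups did not overlap for the 2 pairs that hold COL9A2. COL9A2 made up 78.9% and 77.7% of COL9A2 and COL9A3 counts in mutant libraries, against 84.4% and 79.8% in wild-type libraries. The intervals of mutant replicate 1 (75.9% to 81.7%) and wild-type replicate 2 (77.1% to 82.4%) overlapped.

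**Figure D3:**
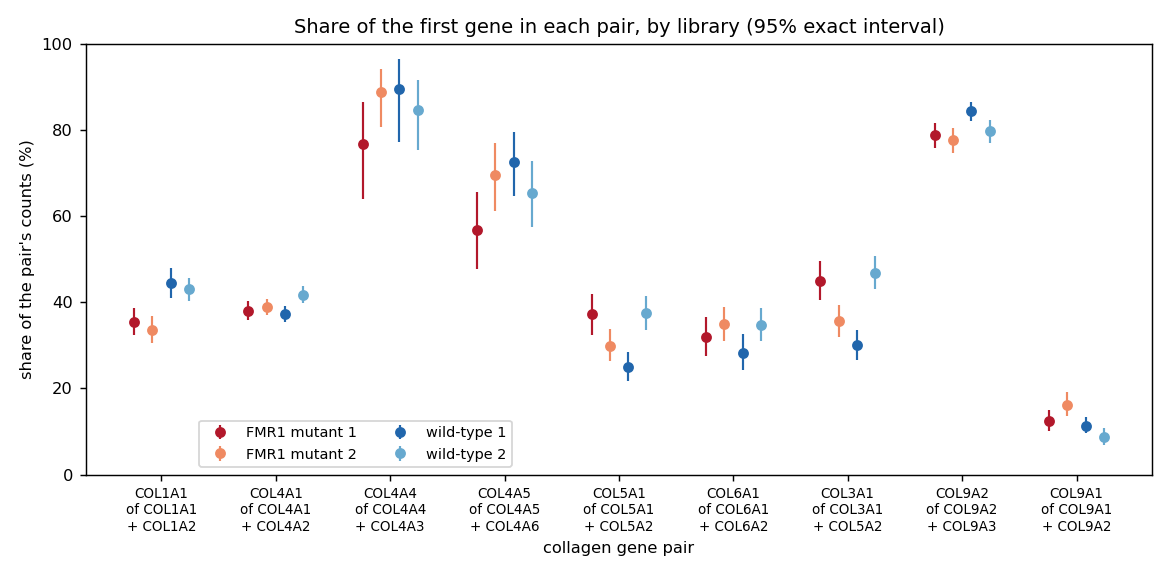
Share of a pair's counts that belongs to its first gene (y axis, percent), with exact 95% counting intervals, for 9 collagen gene pairs. FMR1 mutant libraries are left of wild-type libraries within each pair. The type I pair, at 35.5% and 33.7% in mutant against 44.4% and 43.0% in wild-type libraries, has intervals that do not meet between groups.

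Of 8 basement membrane collagen genes, 6 had a log2 fold change below 0 and 2 above it, with a median of -0.19, and none passed the test. COL4A1 and COL4A2 encode the chains of the type IV network found in nearly all basement membranes. COL4A1 was at 58.4 and 70.3 CPM in mutant libraries, against 74.7 and 75.3 CPM in wild-type libraries. The groups did not overlap, but mutant replicate 2 was nearer to the wild-type values than to mutant replicate 1. The log2 fold change was -0.22 (SE 0.13, 95% interval -0.49 to 0.05, adjusted p = 0.490 by edgeR). COL4A2 was at 95.1 and 110 CPM in mutant libraries, against 126 and 105 CPM in wild-type libraries. The groups overlapped, with a log2 fold change of -0.17 (SE 0.13, 95% interval -0.42 to 0.09). These are among the most precise estimates of the family, and their intervals leave out a fall as large as -0.5 on the log2 scale.

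COL4A1 and COL4A2 stand next to each other, as do COL4A3 and COL4A4 and COL4A5 and COL4A6, in the RefSeq gene table of marmoset assembly calJac240_pri, and in mammals each pair is transcribed head to head from a shared promoter region. COL4A5, whose chain is part of basement membranes of kidney, muscle and nerve, had a log2 fold change of -0.39 (SE 0.25). Its neighbour COL4A6 was at -0.05 (SE 0.34). COL4A4 and COL4A3, best known from the kidney filter, were at 0.14 (SE 0.34) and 0.40 (SE 0.64). COL4A3 was counted 14 and 11 times in mutant libraries, against 5 and 13 times in wild-type libraries, so its interval runs from -0.89 to 1.69.

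COL18A1, the core protein of a heparan sulfate proteoglycan from which endostatin is cut, was the basement membrane gene with the smallest p. It was at 16.9 and 16.4 CPM in mutant libraries, against 19.6 and 27.5 CPM in wild-type libraries. The groups did not overlap, and wild-type replicate 2 was the highest. COL18A1 had a log2 fold change of -0.50 (SE 0.18, 95% interval -0.87 to -0.13), which missed the threshold (adjusted p = 0.172 by edgeR). It passed without wild-type replicate 1 (-0.72, adjusted p = 0.0276 by edgeR) and was -0.23 without wild-type replicate 2. COL15A1, a related collagen of vessel basement membranes, was counted between 22 and 31 times per library (-0.37, SE 0.42).

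Of the 3 collagens known from neurons, none passed, and COL25A1 was the one whose groups did not overlap. COL25A1 is a membrane-bound collagen of neurons whose shed part occurs in amyloid plaques. It was at 12.7 and 14.02 CPM in mutant libraries, against 20.4 and 18.2 CPM in wild-type libraries. The groups did not overlap, and each was tight compared with the gap. The log2 fold change was -0.53 (SE 0.19, 95% interval -0.91 to -0.16, adjusted p = 0.144 by edgeR), and it lay between -0.61 and -0.45 when any 1 library was left out. COL19A1, made in mouse by interneurons that it helps to form inhibitory synapses, was at 17.3 and 18.995 CPM in mutant libraries, against 15.99 and 25.2 CPM in wild-type libraries. The wild-type values lay on both sides of the mutant values (-0.18, SE 0.19). COL24A1, a fibrillar collagen found in subsets of cortical neurons, was at 5.34 and 7.42 CPM in mutant libraries, against 5.21 and 8.30 CPM in wild-type libraries (-0.08, SE 0.28). Beside these, the enzyme GAD2 of GABA neurons was lower (-0.46, adjusted p = 0.0352 by edgeR). GAD1, another enzyme of GABA neurons, did not pass (-0.12, SE 0.11, adjusted p = 0.721 by edgeR). NEUROD6, a transcription factor of excitatory cortical neurons, was higher (0.41, adjusted p = 0.0469 by edgeR). Of the 10 forebrain neuron markers, 5 were below 0 and 5 above it (median 0.05). With 1 library left out, GAD2 passed only without wild-type replicate 1 (adjusted p from 0.0304 to 0.285) and NEUROD6 in no case (0.104 to 0.267). NEUROD6 also missed the threshold by limma-voom (adjusted p = 0.0526). Their part in the collagen values was not tested.

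COL9A2 belongs to the FACIT collagens, which sit on the surface of fibrils and do not form fibrils themselves. It encodes a chain of type IX collagen, best known from cartilage. COL9A2 was at 47.6 and 45.5 CPM in mutant libraries, against 71.7 and 58.9 CPM in wild-type libraries. Both mutant values were close to each other and below both wild-type values. Means were 46.6 ± 1.52 CPM in mutant and 65.3 ± 8.99 CPM in wild-type libraries (SD, n = 2 each). This is a log2 fold change of -0.49 (SE 0.14, 95% interval -0.77 to -0.21), with an adjusted p of 0.0489 by edgeR. The call was at the margin. It was lost with RLE scaling (adjusted p = 0.0511), with upper-quartile scaling (0.0530), with limma-voom (0.0652) and with DESeq2 (0.124). Leaving out wild-type replicate 1 (-0.34, adjusted p = 0.442), mutant replicate 1 (0.154) or mutant replicate 2 (0.220) ended it too.

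The other type IX chains did not follow COL9A2 to the same extent. COL9A3 was at 12.7 and 13.1 CPM in mutant libraries, against 13.3 and 14.9 CPM in wild-type libraries (-0.13, SE 0.20). COL9A1 was at 6.72 and 8.83 CPM in mutant libraries, against 9.20 and 5.62 CPM in wild-type libraries (0.07, SE 0.26). The difference between chains was not tested beyond the pair shares above. Myelin transcripts were lower in the same libraries. All 7 myelin markers fell, with a median log2 fold change of -1.41, and MBP, a main protein of compact myelin, was at 508 and 454 CPM in mutant libraries, against 1408 and 1470 CPM in wild-type libraries. PDGFRA, a receptor of oligodendrocyte precursors and of fibroblasts, was at 87.9 and 110 CPM in mutant libraries, against 139 and 130 CPM in wild-type libraries (-0.44, adjusted p = 0.0554 by edgeR). In bulk tissue, fewer cells of a type and less RNA per cell cannot be told apart, and the part of these cells in the COL9A2 value was not tested.

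Among the remaining FACIT genes, COL20A1 was the only collagen with both mutant libraries above both wild-type libraries, at 2.44 and 2.45 CPM, against 1.51 and 1.38 CPM (0.75, SE 0.44, adjusted p = 0.478 by edgeR). It rests on 32 and 33 counts in mutant libraries, against 20 and 17 in wild-type libraries. COL12A1 and COL14A1, which bind type I fibrils, were at -0.08 (SE 0.20) and -0.21 (SE 0.30). COL16A1, which occurs beside small fibrils in skin and cartilage, was at -0.38 (SE 0.24). COL21A1 and COL22A1 had between 14 and 30 counts per library and log2 fold changes of -0.67 (SE 0.49) and -0.09 (SE 0.42).

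Type VI collagen forms beaded filaments close to cells. COL6A2 was at 22.4 and 26.9 CPM in mutant libraries, against 25.1 and 32.6 CPM in wild-type libraries, and COL6A3 was at 16.3 and 20.4 CPM, against 20.4 and 22.0 CPM. Mutant replicate 2 was level with wild-type replicate 1 for COL6A3, and the groups overlapped for COL6A2. The log2 fold changes were -0.23 (SE 0.17) and -0.21 (SE 0.18). COL6A1, next to COL6A2 in the genome, was at -0.13 (SE 0.24), and COL6A5 at 0.22 (SE 0.47).

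COL26A1, a secreted collagen-like protein, and COL28A1, known in mouse from Schwann cells of peripheral nerve, gave narrow intervals that include 0. COL26A1 was at 88.9 and 81.6 CPM in mutant libraries, against 97.6 and 90.7 CPM in wild-type libraries (-0.14, 95% interval -0.40 to 0.11). Its groups did not overlap, with both mutant libraries below both wild-type libraries. COL28A1 was at 23.8 and 22.7 CPM in mutant libraries, against 20.9 and 24.2 CPM in wild-type libraries (0.05, 95% interval -0.29 to 0.38). The membrane collagen COL23A1 was at -0.10 (SE 0.20), and COL13A1, which is needed at the neuromuscular junction, at -0.30 (SE 0.48). COL7A1 of skin anchoring fibrils was at -0.48 (SE 0.35). COL8A1 and COL8A2, which build hexagonal networks under endothelia, were at 0.04 (SE 0.27) and -0.64 (SE 0.46). Both members that were not tested had few counts. COL10A1, a marker of hypertrophic cartilage, was counted 0 and 0 times in mutant libraries, against 5 and 0 times in wild-type libraries. COL17A1, a hemidesmosome protein of skin, was counted 17 and 3 times, against 9 and 7 times.

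Precision set what could be seen. SE ran from 0.12 for COL26A1 to 0.64 for COL4A3. For 32 of 41 members the 95% interval lay wholly above -1, so that a halving was outside it (78.0%, against 86.2% of all genes tested). For the other 9 members the interval included a halving.

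Summed by class, fibrillar RNA was 153 and 174 CPM in mutant libraries, against 178 and 242 CPM in wild-type libraries. Mutant replicate 2 and wild-type replicate 1 were nearly level, and wild-type replicate 2 was alone at the top. Basement membrane collagens summed to 186 and 217 CPM in mutant libraries, against 237 and 230 CPM in wild-type libraries, and FACIT collagens to 115 and 116 CPM, against 141 and 141 CPM. For both of these classes the mutant libraries were below both wild-type libraries, but for FACIT collagens this rested on COL9A2. Without it, the other 9 summed to 67.7 and 70.3 CPM in mutant libraries, against 69.4 and 82.0 CPM in wild-type libraries, which overlap. The 3 neuronal collagens summed to 35.3 and 40.4 CPM in mutant libraries, against 41.6 and 51.7 CPM in wild-type libraries. These sums did not overlap either, but mutant replicate 2 was close to wild-type replicate 1. Of the 3 genes, only COL25A1 had groups that did not overlap. In these sums, long and abundant transcripts weigh most. The medians of the fibrillar (-0.34), basement membrane (-0.19) and neuronal (-0.18) groups differed by less than the leave-one-out range of the fibrillar median, from -0.54 to -0.12, and no test of the difference between classes was made. Without wild-type replicate 2 the order of fibrillar (-0.12) and basement membrane (-0.22) medians turned round.

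Between both wild-type libraries, the median log2 difference of fibrillar genes was 0.59 (replicate 2 over replicate 1). Their median log2 fold change between the groups was -0.34. Without COL24A1, which is also in the neuronal grouping, these medians were 0.38 and -0.36. The wild-type difference was 0.65 for neuronal, 0.54 for beaded filament and 0.30 for basement membrane genes. For mutant replicate 2 over mutant replicate 1, the medians were 0.13 for fibrillar, 0.15 for neuronal, 0.39 for beaded filament and 0.24 for basement membrane genes. Over all genes tested, the wild-type and the mutant median were under 0.01 in size. Of 19 markers of meningeal fibroblasts, 14 were higher in wild-type replicate 2 than in wild-type replicate 1 (median log2 difference 0.41). Between the mutant libraries, 9 of 19 were higher in mutant replicate 2 than in mutant replicate 1 (median -0.01). Without PDGFRA, which precursors of oligodendrocytes also express, these markers summed to 326 and 264 CPM in mutant libraries, against 234 and 337 CPM in wild-type libraries. The mutant sums lay between the wild-type sums. DCN, a small proteoglycan that binds type I fibrils, was at 54.8 and 40.7 CPM in mutant libraries, against 35.6 and 56.3 CPM in wild-type libraries. Of the 19 meningeal markers, 12 had a log2 fold change above 0 and 7 below it (median 0.03). Both mutant libraries were above both wild-type libraries for 5 of 19 (against 21.4% of all genes). They were below them for 3 (against 21.8%). In the test, 1 marker fell and 0 rose (against 2.23% of all genes passing). The one that fell was ALDH1A1, a retinal dehydrogenase (-0.61, SE 0.14, adjusted p = 0.0148 by edgeR), which dopamine neurons and some glia also express. ALDH1A1 missed the threshold when wild-type replicate 1 (adjusted p = 0.119), mutant replicate 1 (0.125) or mutant replicate 2 (0.0633) was left out. The part of meningeal tissue in the fibrillar values was not tested.

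Vessel markers were measured beside the basement membrane genes. None of 15 endothelial markers passed (median -0.13, against -0.00396 over all genes), and they summed to 349 and 339 CPM in mutant libraries, against 346 and 389 CPM in wild-type libraries. Of 12 tested markers of pericytes and smooth muscle, the contractile and supporting cells of vessels, 1 fell and 0 rose (median -0.26). Of all genes tested, 2.23% passed. Both mutant libraries were below both wild-type libraries for 7 of the 12 (against 21.8% of all genes) and above them for 0 (against 21.4%). The marker that fell was VTN, which encodes vitronectin (-0.57, SE 0.16, adjusted p = 0.0481 by edgeR). The adhesion molecule MCAM did not pass (-0.51, adjusted p = 0.0554). The VTN call was lost with upper-quartile scaling (adjusted p = 0.0504), limma-voom (0.0615), robust = FALSE (0.0614) and DESeq2 (0.187), and on leaving out mutant replicate 2 (0.358) or wild-type replicate 2 (0.249). The whole list summed to 246 and 250 CPM in mutant libraries, against 310 and 293 CPM in wild-type libraries, so that the groups did not overlap. The part of these cells in the type IV and XVIII values was not tested.

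**Figure D4:**
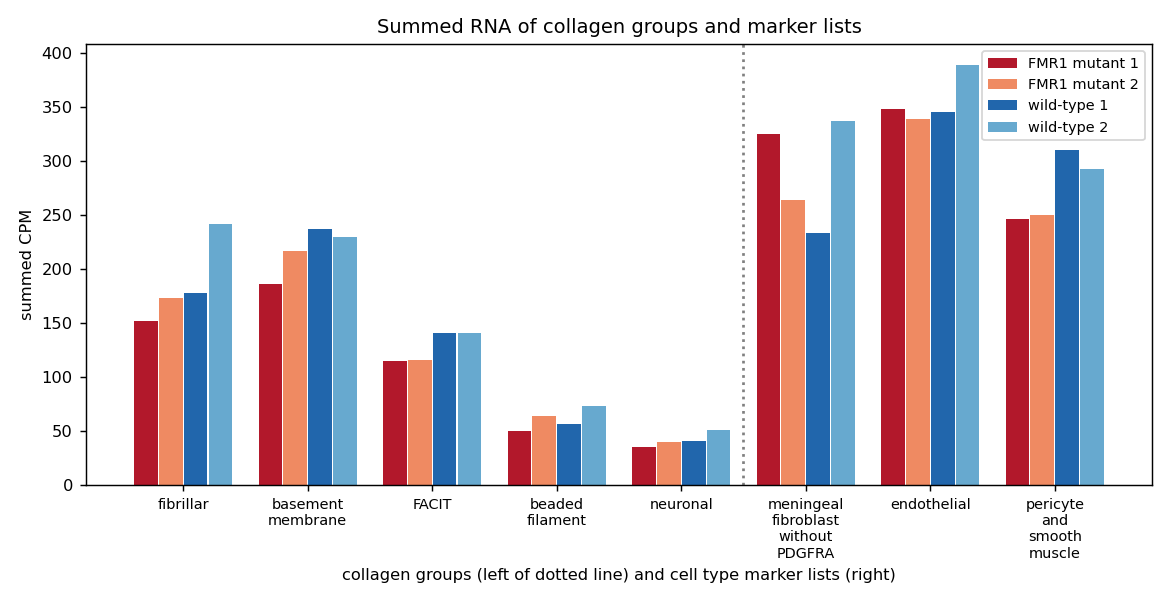
Summed CPM (y axis, from 0) of 5 collagen groups, left of the dotted line, and 3 marker lists, right of it, in each library. Bars run from FMR1 mutant 1 and 2 to wild-type 1 and 2. Fibrillar, beaded filament and neuronal collagens are highest in wild-type 2, at 242, 74.0 and 51.7 CPM. So are meningeal and endothelial markers, at 337 and 389 CPM. COL19A1 and COL24A1 are counted both in the neuronal group and in the FACIT or fibrillar group.

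Genes that build, cross-link, bind or degrade collagen were examined beside the collagens. Of 67 tested partner genes, 2 fell and 0 rose (2.99%, against 2.23% of all genes tested), and the median was -0.03. At an unadjusted p under 0.05, 13 were lower (19.4%, against 7.75% of all genes) and 3 higher. Both mutant libraries were below both wild-type libraries for 22 (32.8%, against 21.8% of all genes) and above them for 8 (11.9%, against 21.4%). None of the 20 processing enzymes and chaperones passed (median -0.01). SERPINH1, the chaperone of the procollagen helix, was at 22.7 and 22.3 CPM in mutant libraries, against 17.4 and 20.9 CPM in wild-type libraries (0.23, SE 0.17). FKBP10, a prolyl isomerase that acts on type I procollagen, was at 14.4 and 14.8 CPM in mutant libraries, against 22.3 and 21.4 CPM in wild-type libraries. Its groups were tight and did not overlap, yet it missed the threshold (-0.58, SE 0.18, adjusted p = 0.0794 by edgeR). The prolyl hydroxylase family member P3H3 was at 0.40 (adjusted p = 0.303).

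Of 18 tested genes of cross-linking and fibril assembly, 1 fell and 0 rose (against 2.23% of all genes passing). The log2 fold change was below 0 for 12 and above it for 6 (median -0.11). Both mutant libraries were below both wild-type libraries for 8 (against 21.8% of all genes) and above them for 3 (against 21.4%). LOXL2, a lysyl oxidase that cross-links collagens, type IV among them, was at 4.35 and 5.34 CPM in mutant libraries, against 10.3 and 9.12 CPM in wild-type libraries. Both mutant values were well below both wild-type values. LOXL2 fell by 1.003 on the log2 scale (SE 0.26), with an adjusted p of 0.0254 by edgeR. It did not pass by DESeq2 (adjusted p = 0.171) or without wild-type replicate 1 (0.105), mutant replicate 1 (0.298) or mutant replicate 2 (0.0824). SPARC, a collagen-binding glycoprotein, was at 320 and 341 CPM in mutant libraries, against 449 and 398 CPM in wild-type libraries (-0.36, adjusted p = 0.0981). The lysyl oxidase LOX went the other way, at 5.95 and 7.72 CPM in mutant libraries, against 4.30 and 4.48 CPM in wild-type libraries. LOX did not pass (0.64, SE 0.28, adjusted p = 0.302 by edgeR).

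TIMP3, a matrix-bound inhibitor of metalloproteinases, was the other partner that fell, and the only 1 of 9 tested proteases and inhibitors to do so. It was at 62.3 and 62.1 CPM in mutant libraries, against 104 and 87.8 CPM in wild-type libraries. The mutant values were nearly equal and the groups did not overlap. TIMP3 fell by 0.62 on the log2 scale (SE 0.13), with an adjusted p of 0.00408 by edgeR, and it passed by DESeq2 and limma-voom. Leaving out wild-type replicate 1 ended the call (-0.50, adjusted p = 0.0833 by edgeR). TIMP1 was at -0.55 (SE 0.22, adjusted p = 0.246).

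None of 8 tested collagen receptors passed (median -0.10). ADGRG1, the receptor for type III collagen, was at 200 and 206 CPM in mutant libraries, against 194 and 196 CPM in wild-type libraries, with a log2 fold change of 0.06 (95% interval -0.18 to 0.29). The discoidin domain receptors DDR1 and DDR2 were at -0.03 (SE 0.14) and -0.01 (SE 0.33). ITGA11, an integrin chain for type I collagen, was at 4.89 and 5.94 CPM in mutant libraries, against 10.1 and 9.53 CPM in wild-type libraries. Its groups did not overlap and it missed the threshold (-0.86, SE 0.25, adjusted p = 0.0586 by edgeR), while its partner chain ITGB1 was at -0.17 (SE 0.13). None of 12 basement membrane partners passed (median -0.16), and 9 were below 0 and 3 above it. The groups did not overlap for 6 with lower mutant values (against 21.8% of all genes) and 2 with higher ones (against 21.4%). The laminin chain LAMA5 was at -0.62 (SE 0.24, adjusted p = 0.215) and the linker NID1 at -0.31 (SE 0.13, adjusted p = 0.279). The laminin chain LAMA4 went the other way, at 21.7 and 22.8 CPM in mutant libraries, against 18.3 and 16.1 CPM in wild-type libraries. LAMA4 did not pass (0.37, SE 0.17, adjusted p = 0.341 by edgeR).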

How the data were processed

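The authors deposited raw gene counts, as whole numbers, for 35205 genes in 4 libraries. Per the labels' protocols, poly(A) RNA was made into libraries with a directional kit. Trimmomatic 0.38 and STAR 2.7.10a are named, per the submitters' processing notes. No source used here names the counting tool, the build, the annotation or how strand was treated. Columns were matched to libraries by name. Replicates differed by more than sampling noise (chi-square per degree of freedom 6.90 between mutant and 7.28 between wild-type libraries).

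The tests were run with edgeR 4.0.16 (R 4.3.3): filterByExpr at a minimum count of 10 (16956 genes), TMM scaling, the quasi-likelihood test (robust = TRUE, 2 residual degrees of freedom) and Benjamini-Hochberg adjustment over all genes, at 0.05. The script was tested on simulated data. Wherever an adjusted p is printed without a tool's name, it is from this test. Each gene's spread was estimated partly from other genes (median prior degrees of freedom 31.6). Intervals and p-values therefore do not rest on a gene's own counts alone. SE is the size of the log2 fold change divided by the square root of F. CPM uses TMM-scaled library sizes. Alternatives were RLE and upper-quartile scaling, DESeq2 1.42.0 on all rows, limma-voom (limma 3.58.1), robust = FALSE, other filters, a replicate block and leaving out each library.

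Members and lists were chosen with earlier results of these data known. Classes follow textbook structure, with COL19A1, COL24A1 and COL25A1 as a second, neuronal grouping. Named genes were every passing collagen, per class the 4 with most CPM and the 3 of smallest p, the neuronal and neighbouring pairs, and per partner or marker list up to 4 passing genes or the 2 of smallest p. Other collagens are given by their values. DCN, TCF7L2, TTR, STMN2, GAD1, LOX, LAMA4, the sums without TTR or COL9A2 and the gene pairs compared were singled out after their values were seen. RefSeq's gene table was used for gene order only, and all 43 symbols matched it. COL6A6 was not analysed here.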

Additional observations from a re-analysis of the deposited data

How the results depend on the processing

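The count of all changed genes (378) was 244 by DESeq2, 633 with no low-count filter, 624 at an adjusted p of 0.1 and between 163 and 562 with 1 library left out (163 without mutant replicate 1, 220 without mutant replicate 2). The count of changed collagen genes (1) was 0 with RLE scaling, upper-quartile scaling, DESeq2 and limma-voom, 2 with no low-count filter (COL9A2 and COL1A1), 3 at an adjusted p of 0.1 and between 0 and 2 with 1 library left out (2 without wild-type replicate 1, 0 without either mutant library). With robust = FALSE it was 1, but COL1A1 (adjusted p = 0.0310) in place of COL9A2 (0.0629). The count of changed partner genes (2) was 1 by DESeq2, 5 at an adjusted p of 0.1 and between 0 and 3 with 1 library left out (0 without wild-type replicate 1, 1 without either mutant library). With the replicate number as a block the counts were 493, 2 and 3. The differences between replicates 1 and 2 were nearly uncorrelated between the groups (r = 0.03 across genes). The labels do not say whether same-numbered libraries share more than a number, and 1 correlation cannot decide it.

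Medians and summed ratios kept their sign and moved by less than the spread between replicates, except with a library left out: the basement membrane median (-0.19) ranged from -0.36 to -0.15, its log2 ratio of summed CPM (-0.21) from -0.33 to -0.11, and the neuronal median (-0.18) from -0.45 to 0.19. Leaving aside genes singled out after their values were seen, no named gene changed sign under another scaling, tool, filter or block. With 1 library left out, log2 fold changes that changed sign ranged from -0.56 to 0.29 (COL1A2), -0.68 to 0.11 (COL3A1), -0.40 to 0.00491 (COL11A1), -0.47 to 0.19 (COL19A1), -0.38 to 0.30 (COL24A1), -0.18 to 0.0162 (COL12A1), -0.48 to 0.34 (COL6A1), -0.12 to 0.61 (COL6A5), -0.0117 to 0.0862 (COL8A1), -0.24 to 0.0353 (COL23A1), -0.0560 to 0.16 (COL28A1), -0.17 to 1.30 (COL4A3), -0.37 to 0.62 (COL4A4), -0.29 to 0.24 (COL4A6), -0.0496 to 1.57 (CLIC6, a choroid plexus marker), -0.21 to 0.13 (DDR1), -0.17 to 0.13 (DDR2) and -0.0222 to 0.53 (FMR1). With 1 library left in a group, its spread is assumed to be that of the other group. Depth limits the genes with under 50 counts per library, whose SE was over 0.3. The causes were not tested.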
